A study of Mus musculus with 4 samples.

Results

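The identity of neurons in the mouse globus pallidus was followed through 10 genes, of which 9 could be measured after cocaine and after saline. The genes were Pvalb, Lhx6, Nkx2-1, Sox6, Etv1, Kcng4, Npas1, Foxp2, Gbx1 and Spp1, taken by exact gene symbol from the platform annotation of the arrays. They were carried by 24 of the 45220 features in the table and made up 9 of the 18865 genes tested. Spp1, which encodes the secreted phosphoprotein osteopontin, has no feature under its own symbol in that annotation and was not analysed here.

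The external globus pallidus is a nucleus of the basal ganglia whose neurons release GABA. Prototypic neurons project to the subthalamic nucleus, fire fast and mostly contain parvalbumin. Many descend from progenitors that express the transcription factor Nkx2-1, with the transcription factor Lhx6 acting downstream of it. Arkypallidal neurons project back to the striatum and express Foxp2 and Npas1. The separation is not clean, since Lhx6, Sox6 and Npas1 are found in more than one pallidal class. In this account Pvalb, Lhx6, Nkx2-1, Sox6, Etv1 and Kcng4 are taken as the 6 prototypic genes and Npas1 and Foxp2 as the 2 arkypallidal genes, with Gbx1 in neither class.

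The tested mice were male C57BL6 animals given cocaine at 15 mg/kg on days 2, 3 and 4 of a conditioned place preference protocol, in which an animal learns to prefer a compartment paired with a drug. The cocaine mice were ones with a high preference score, so this group was selected by behaviour. The saline mice were male C57BL6 animals that received saline on the same days. Ages were not given in the sources used here. Each of 4 two-colour Agilent arrays compared globus pallidus RNA of 1 cocaine mouse with that of 1 saline mouse and so forms 1 mouse pair. There were 4 pairs, and this small number sets how precise each value can be. Cocaine RNA carried the dye Cy5 in pairs 1 and 3 and Cy3 in pairs 2 and 4.

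Values are log2 ratios of cocaine over saline after normalization within each array. The table does not state which treatment is the numerator. From the wording of the design text, which sets cocaine mice against saline mice, cocaine is likely on top, and every sign given here turns round if it is not. In bulk tissue, fewer cells of a type and less RNA per cell cannot be told apart.

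Promoter sequences of 3 of these genes are printed for orientation, Nkx2-1 as the lineage factor, Pvalb as the marker of the prototypic class and Npas1 as the gene with the same direction in all 4 pairs. The windows come from RefSeq on build GRCm38.p6 and run from 250 bases before to 50 bases after an annotated start, on the minus strand at chr12:56536859-56537158 for Nkx2-1, at chr15:78206351-78206650 for Pvalb (the first of its 2 listed starts) and at chr7:16476731-16477030 for Npas1. Capitals mark CAAG, the core letters bound by Nkx2-1, on either strand (CTTG when read on the printed strand).
Nkx2-1: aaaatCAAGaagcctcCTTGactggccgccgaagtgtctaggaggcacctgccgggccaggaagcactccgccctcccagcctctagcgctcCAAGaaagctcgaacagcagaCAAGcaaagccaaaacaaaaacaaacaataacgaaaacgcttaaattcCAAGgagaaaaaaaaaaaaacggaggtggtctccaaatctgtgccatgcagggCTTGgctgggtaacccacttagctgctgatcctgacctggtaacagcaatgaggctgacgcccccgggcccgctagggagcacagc
Pvalb: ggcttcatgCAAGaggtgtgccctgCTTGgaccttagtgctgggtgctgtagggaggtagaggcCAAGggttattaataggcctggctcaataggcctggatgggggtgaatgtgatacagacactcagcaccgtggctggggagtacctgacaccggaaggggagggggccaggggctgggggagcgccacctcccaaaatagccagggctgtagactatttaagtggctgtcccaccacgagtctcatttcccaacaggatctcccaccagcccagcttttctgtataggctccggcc
Npas1: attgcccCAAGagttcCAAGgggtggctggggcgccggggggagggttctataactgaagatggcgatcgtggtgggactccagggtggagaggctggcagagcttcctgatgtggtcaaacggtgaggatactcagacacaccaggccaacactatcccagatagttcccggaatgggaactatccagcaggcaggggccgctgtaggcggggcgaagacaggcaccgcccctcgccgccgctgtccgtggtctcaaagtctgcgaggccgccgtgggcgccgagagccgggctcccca
The core occurred 6 times in the Nkx2-1 window, 3 times in the Pvalb window and 2 times in the Npas1 window. It is short and common: 90.6% of the 32851 promoter windows of this table hold it at least once, with a median of 2 matches, and 5.9% hold 6 or more. The arrays measured RNA and not binding, so the matches are a description of the letters.

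None of the measured genes passed the threshold for a difference between treatments. Of the 9 measured members, 0 had an adjusted p under 0.05 (limma, Benjamini-Hochberg over all genes), where 0% of all 18865 genes did. At an unadjusted p under 0.05 the members again numbered 0, against 512 genes or 2.71% of all genes. The fitted changes of the members lay between -0.16 and 0.12, with 4 above 0 and 5 below 0 and a median of -0.011. Over all genes the median was -0.0076 and 54.3% of genes were below 0. The median size of the change, regardless of sign, was 0.047 for the members and 0.050 for all genes. Npas1 was the only member with the same direction in all 4 pairs, which makes 1 of 9, where 7.32% of all genes had it. Of the 24 single features 1, that of Npas1, had the same direction in all 4 pairs, where 7.65% of all single features had it. Without pair 4, the members with the same direction in the other 3 pairs were Npas1, Kcng4, Foxp2 and Gbx1, or 4 of 9, where 22.7% of all genes had it.

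**Figure D1:**
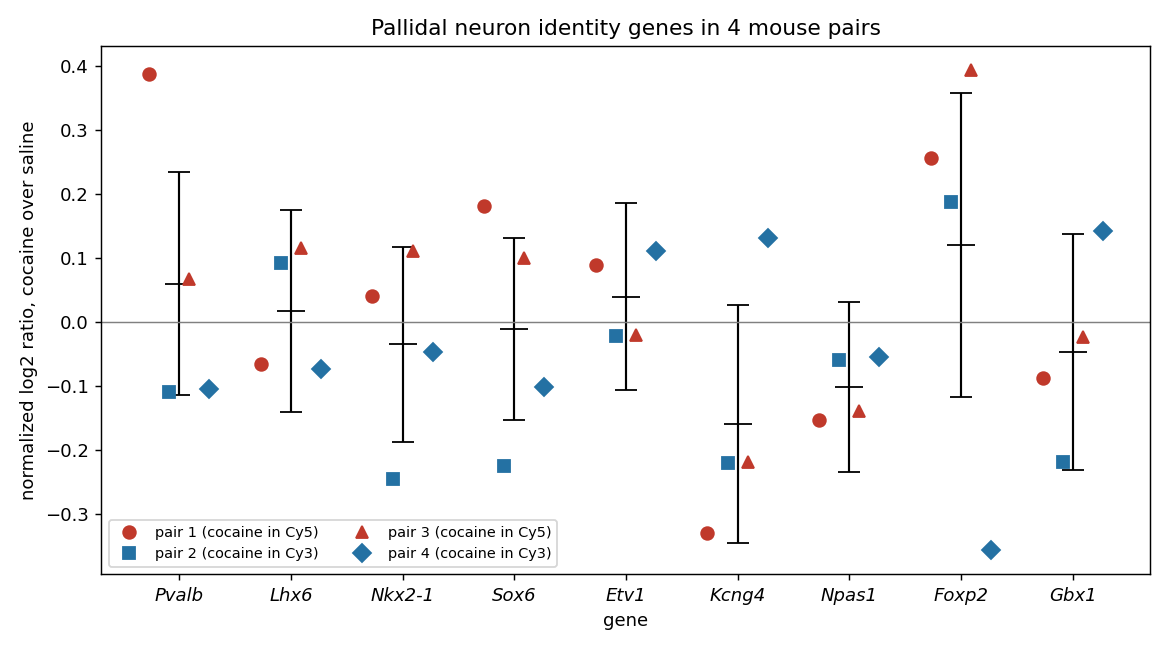
Normalized log2 ratio of cocaine over saline (vertical axis) for the 9 measured genes (horizontal axis). Each symbol is 1 mouse pair, red where cocaine RNA carried Cy5 and blue where it carried Cy3; the horizontal dash is the fitted change and the bar its 95% interval from limma. All 9 intervals include 0, and only for Npas1 do all 4 pairs lie on the same side of 0.

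**Figure D2:**
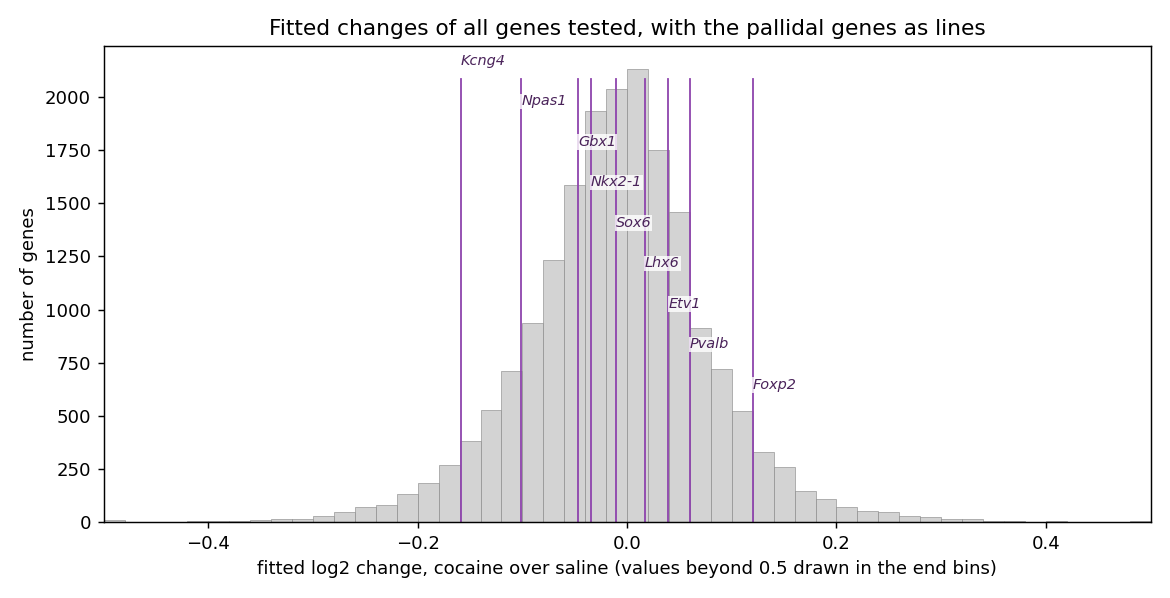
Number of genes (vertical axis) by fitted log2 change of cocaine over saline (horizontal axis) for all 18865 genes tested, with the 9 pallidal genes as vertical lines. The lines fall between -0.16 for Kcng4 and 0.12 for Foxp2, inside the bulk of the distribution.

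Among the prototypic genes, Pvalb encodes parvalbumin, a calcium buffer of fast-spiking neurons. Its ratios were 0.39, -0.11, 0.067 and -0.10 for pairs 1 to 4. Pair 1 stood above the other 3, and the ratio was above 0 where cocaine RNA carried Cy5 and below 0 where it carried Cy3. The fitted change was 0.060 ± 0.071 (moderated SE, n = 4 pairs), with a 95% interval of -0.11 to 0.23, or a fold of 0.924 to 1.175 (limma, adjusted p = 0.967). It moved to -0.020 without pair 1 and to 0.14 without pair 3.

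Nkx2-1, a homeobox transcription factor that specifies the ventral progenitors of the lineage, was carried by 10 features of a single accession. These allow a look at the precision of a spot: the means over the 10 features were 0.040 ± 0.048, -0.24 ± 0.066, 0.11 ± 0.039 and -0.047 ± 0.060 for pairs 1 to 4 (SD over features). The SD over features within a pair, 0.039 to 0.066, was smaller than the SD of 0.154 over the 4 pair means, so the difference between pairs was larger than spot noise. The SD over pair means includes the dye, and the spread between pairs of the same dye orientation was 0.105. All 10 features shared 1 recovered signal and so 1 loess correction per array, and animals and correction cannot be told apart here. Pair 2 was the lowest pair for 9 of the 10 features, with values from -0.32 to -0.11 in that pair. The fitted change of the gene was -0.035 ± 0.062, with an interval of -0.19 to 0.12 (limma, adjusted p = 0.973). All 10 features had a fitted change below 0, from -0.075 to -0.0015, but they share the same 4 pairs of animals and are not replicates of the treatment.

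Lhx6, a LIM homeobox factor that acts downstream of Nkx2-1, had 2 features with different accessions. The brighter one had a recovered mean signal of 4704 and 4330 scanner units on the arrays of pairs 1 and 3. The dimmer one had 84.6 and 94.4 units, near the median recovered signal over all features, 93.7 units. The brighter feature read -0.0024, 0.082, 0.31 and -0.13 in pairs 1 to 4, and the dimmer one -0.13, 0.10, -0.080 and -0.015. Both features had pairs on either side of 0, and their mean gave a fitted change of 0.017 ± 0.065, with an interval of -0.14 to 0.18 (limma, adjusted p = 0.990). The signals were read back from the ratios, and each may be off by a factor of 2.

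Sox6, an SRY-box factor active downstream of Lhx6 in related interneurons, had 5 features that did not move alike. One of them, with a recovered signal of 344 and 340 units in pairs 1 and 3, read 0.14, -0.50, 0.11 and -0.15 in pairs 1 to 4. Another, at 80.9 and 76.9 units, read 0.74, -0.81, 0.39 and -0.22. In both of these features the ratio was above 0 in the pairs with cocaine in Cy5 and below 0 in the pairs with cocaine in Cy3. The other 3 features had recovered signals between 58.4 and 88.1 units and ratios between -0.22 and 0.18. The mean of all 5 features was 0.18, -0.22, 0.10 and -0.10 in pairs 1 to 4, and the fitted change was -0.011 ± 0.058, with an interval of -0.15 to 0.13 (limma, adjusted p = 0.992).

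Etv1, an ETS-family transcription factor, had the smallest range over pairs after Npas1. It read 0.089, -0.022, -0.020 and 0.11 for pairs 1 to 4. Pairs 2 and 3 were near 0 and pairs 1 and 4 slightly above it. The fitted change was 0.039 ± 0.060, with an interval of -0.11 to 0.19 (limma, adjusted p = 0.970).

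Kcng4 encodes a subunit that does not form channels alone and modifies Kv2 potassium channels. It had the largest fitted change of the members, although short of the threshold. Its ratios were -0.33, -0.22, -0.22 and 0.13 for pairs 1 to 4. The first 3 pairs were below 0 and pair 4 was above it. The fitted change was -0.16 ± 0.076, with an interval of -0.34 to 0.026, or a fold of 0.788 to 1.018 (limma, unadjusted p = 0.080, adjusted p = 0.967). It was larger in size than the change of 92.3% of all genes, a rank to be read as that of the largest of 9 members. The value moved to -0.071 without pair 2 and to -0.25 without pair 4. The feature was dim, at 123 and 107 units in pairs 1 and 3.

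Of the arkypallidal genes, Npas1 encodes a PAS-domain transcription factor that represses its targets. It was below 0 in each mouse pair, with ratios of -0.15, -0.058, -0.14 and -0.055 for pairs 1 to 4. All 4 pairs thus lay on one side, where 7.32% of all genes had the same direction in all 4 pairs and 4.05% were below 0 in all 4. Pairs 1 and 3 differed by 0.013 and pairs 2 and 4 by 0.0036, and 0.223% of all genes had a smaller spread within a dye orientation. That rank is to be read as that of the smallest of 9 members. The fitted change was -0.10 ± 0.054, with an interval of -0.23 to 0.031, or a fold of 0.851 to 1.022 (limma, adjusted p = 0.967). An exact sign-flip permutation test over 4 pairs gives its smallest two-sided p, which is above 0.05, whenever all pairs share a direction. For Npas1 this test therefore restates the shared direction given above and adds nothing to it. Leaving out any single pair left the change between -0.10 and -0.098. With a dye term in the fit, this follows from the small gaps between pairs of the same dye orientation and is no separate check. Its feature was bright, at 3634 and 3666 units in pairs 1 and 3. With a wider loess window (span 0.7), pair 2 read 0.0074 and the shared direction was lost, while the fitted change was -0.092. Pair 4 read -0.031 under that setting. With median centring in place of loess, pairs 2 and 4 read -1.47 and -0.69, so the size of their gap depends on the normalization.

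The ratios of Npas1 before normalization show what the correction does. As deposited they were 0.97, -2.32, 1.08 and -1.24 in pairs 1 to 4, against 1.49, -2.32, 1.26 and -1.26 for Pvalb and 1.19, -2.22, 1.17 and -1.04 for Etv1. All 3 genes were far above 0 where cocaine RNA carried Cy5 and far below 0 where it carried Cy3, and the array of pair 2 had the largest ratios.

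Foxp2, a forkhead transcription factor of striatum-projecting neurons, varied most between pairs, and its 2 features disagreed. They are listed under the same accession. The first feature, at 615 and 731 units in pairs 1 and 3, read -0.78, 0.71, 0.24 and -0.32 in pairs 1 to 4. The second, at 65.7 and 66.8 units, read 1.29, -0.34, 0.55 and -0.39. The 2 features thus had opposite signs in pairs 1 and 2 and the same sign in pairs 3 and 4, and in pair 1 they were 2.08 log2 units apart. The second feature followed the dye, with a dye effect of 0.64 (limma over single features, adjusted p = 0.044). For their mean the ratio was 0.26, 0.19, 0.39 and -0.36 in pairs 1 to 4. The fitted change of the gene was 0.12 ± 0.097, with an interval of -0.12 to 0.36 (limma, adjusted p = 0.967). This standard error does not include the gap between the features. With the brighter feature alone the change was -0.037 ± 0.22, and without pair 2 the change of the mean was -0.016, so that Foxp2 has no settled sign in these data.

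**Figure D3:**
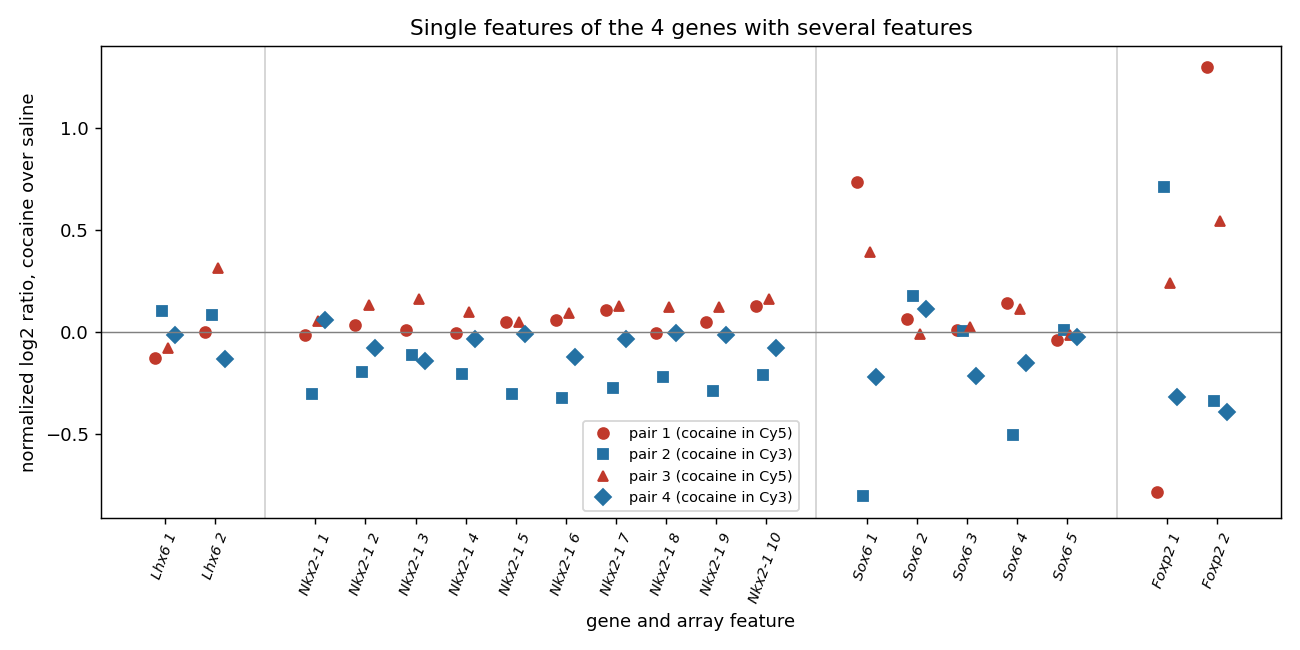
Normalized log2 ratio of cocaine over saline (vertical axis) for every feature of the 4 genes with several features (horizontal axis), with 1 symbol per mouse pair as coloured by the dye of the cocaine RNA. The 10 Nkx2-1 features lie between -0.32 and -0.11 in pair 2, the lowest pair for 9 of them, whereas the features of Sox6 and Foxp2 spread between -0.81 and 1.29.

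Gbx1, a homeobox factor also known from cholinergic neurons of the basal forebrain, read -0.088, -0.22, -0.024 and 0.14 in pairs 1 to 4. The first 3 pairs were below 0 and pair 4 above, the same order of signs as for Kcng4. The fitted change was -0.047 ± 0.076, with an interval of -0.23 to 0.14 (limma, adjusted p = 0.970). It was 0.043 without pair 2 and -0.14 without pair 4.

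As classes, the prototypic genes had 3 of 6 fitted changes above 0 and a median of 0.0032, and the arkypallidal genes had 1 of 2 above 0 and a median of 0.0095. By pair, the median of the prototypic genes was 0.064, -0.16, 0.083 and -0.060 in pairs 1 to 4, and the median of the arkypallidal genes was 0.052, 0.065, 0.13 and -0.21. The prototypic median was above the arkypallidal one in pairs 1 and 4 and below it in pairs 2 and 3. No direction of one class against the other was thus shared by the pairs. The arkypallidal median is the mean of 2 genes, and the 2 features of Foxp2 had opposite signs in pairs 1 and 2. The class values by pair therefore depend on how the Foxp2 features are taken. Taking 1 gene from each class, Pvalb minus Npas1 was 0.54, -0.051, 0.21 and -0.050. Npas1 is not restricted to the arkypallidal class, and Foxp2 has no part in this difference.

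A dye effect past the threshold was found for 0 of the 9 members (limma over genes, adjusted p under 0.05), where 6.76% of all genes had one. These values follow loess on a signal chosen in part by the dye contrast, so only the remaining dye effect was tested. The spread within a dye orientation had a median of 0.123 for the members and 0.122 for all genes. Npas1 had the smallest, 0.0069, and Foxp2 the largest, 0.280, of the members. Positions on the arrays were not given and were assumed from the feature numbers, in rows of 85 features. Under that assumption the median ratio of the features around each one, 96 values in all, was between -0.14 and 0.085. Ratios of features 85 numbers apart correlated at only 0.013 to 0.027, so the assumed layout is weakly backed and local shifts could not be judged.

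Other genes of the same biology were described from lists. The genes named are the 2 measured ones of each list with the smallest unadjusted p, so they are picked and not typical of it. Over all genes, 8630 of 18865 fitted changes were above 0. Genes of GABA synthesis and signalling had 2 of 6 members measured, with Gad1, a GABA-synthesizing enzyme, at 0.053 ± 0.068 and Gad2 at -0.066 ± 0.14. Channel genes of fast-spiking neurons had 8 of 14 measured, 0 past the threshold, 5 above 0 and a median of 0.0034. In that list Hcn2, a hyperpolarization-activated channel, was at -0.12 ± 0.055 and Kcna2, a Kv1 potassium channel, at 0.17 ± 0.085. Transcription factors of the forebrain GABA lineage had 18 of 22 measured, 0 past the threshold, 14 above 0 and a median of 0.014. In that list Sox2, a factor of neural progenitors and glia, was at 0.26 ± 0.074 (limma, adjusted p = 0.967) and Dlx5, a homeobox factor, at 0.11 ± 0.066. Relatives of the members in the same gene families had 19 of 21 measured, 0 past the threshold, 13 above 0 and a median of 0.015. In that list Etv5, an ETS factor related to Etv1, was at 0.17 ± 0.075 and Gbx2, a homeobox factor related to Gbx1, at -0.17 ± 0.15.

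Markers of other cells that a pallidal dissection could hold were followed in the same way, and several moved more between pairs than the pallidal genes. The median of the 9 measured pallidal genes was 0.040, -0.11, 0.067 and -0.055 in pairs 1 to 4. Striatal projection neuron markers (9 of 11 measured) had -0.30, 0.22, -0.14 and -0.041, with pair 2 above 0 and pair 1 lowest. Oligodendrocyte markers (6 of 8 measured) had 0.37, -0.27, -0.049 and 0.080, highest in pair 1 and lowest in pair 2. Cholinergic neuron markers (8 of 9 measured) had 0.11, 0.12, -0.30 and -0.18. Pairs 1 and 2 were thus above 0 and pairs 3 and 4 below it for the cholinergic list. Markers of cortical and thalamic glutamatergic neurons (7 of 8 measured) stayed between -0.078 and 0.090, astrocyte markers (7 of 7) between -0.088 and 0.17, microglia and macrophage markers (7 of 8) between -0.19 and 0.14, and endothelial markers (5 of 5) between -0.056 and 0.26. In the fit over all pairs, 0 genes of these 7 lists passed the threshold (limma, adjusted p), and the list medians lay between -0.032 and 0.099. Their part in the values of the pallidal genes was not tested.

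**Figure D4:**
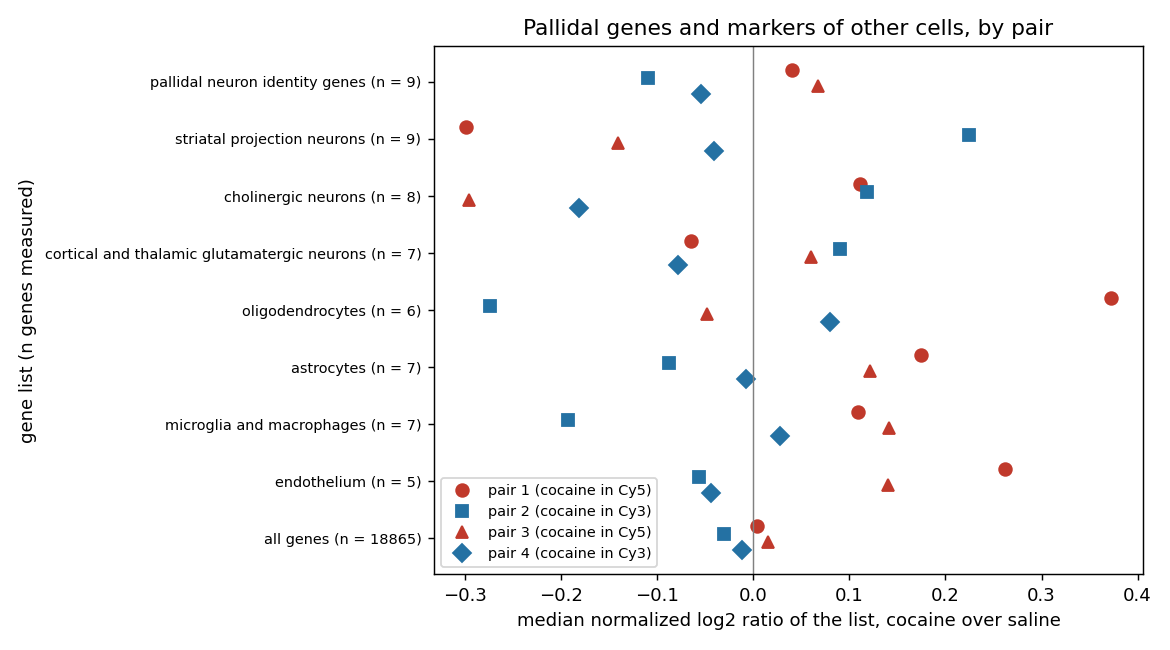
Median normalized log2 ratio of cocaine over saline (horizontal axis) for the pallidal genes, for marker lists of 7 other cell types and for all genes (rows), with 1 symbol per mouse pair. The pallidal median stays between -0.11 and 0.067, while the oligodendrocyte median runs from -0.27 in pair 2 to 0.37 in pair 1.

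The labelled tissue was set against the signals of these genes. Pvalb, Npas1, Etv1, Lhx6, Nkx2-1, Foxp2, Sox6 and Gbx1 each had at least 1 feature with a recovered signal of 241 units or more in pairs 1 and 3, where the median over all features was 93.7 units and the most common signal 61.8 units. The other features of these genes were dimmer, at 65.7 and 66.8 units for the second Foxp2 feature, 84.6 and 94.4 units for the dimmer Lhx6 feature and 58.4 to 88.1 units for 4 of the 5 Sox6 features. The only Kcng4 feature was at 123 and 107 units. A recovered signal is the mean of both mice of a pair and compares no gene with another.

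**Figure D5:**
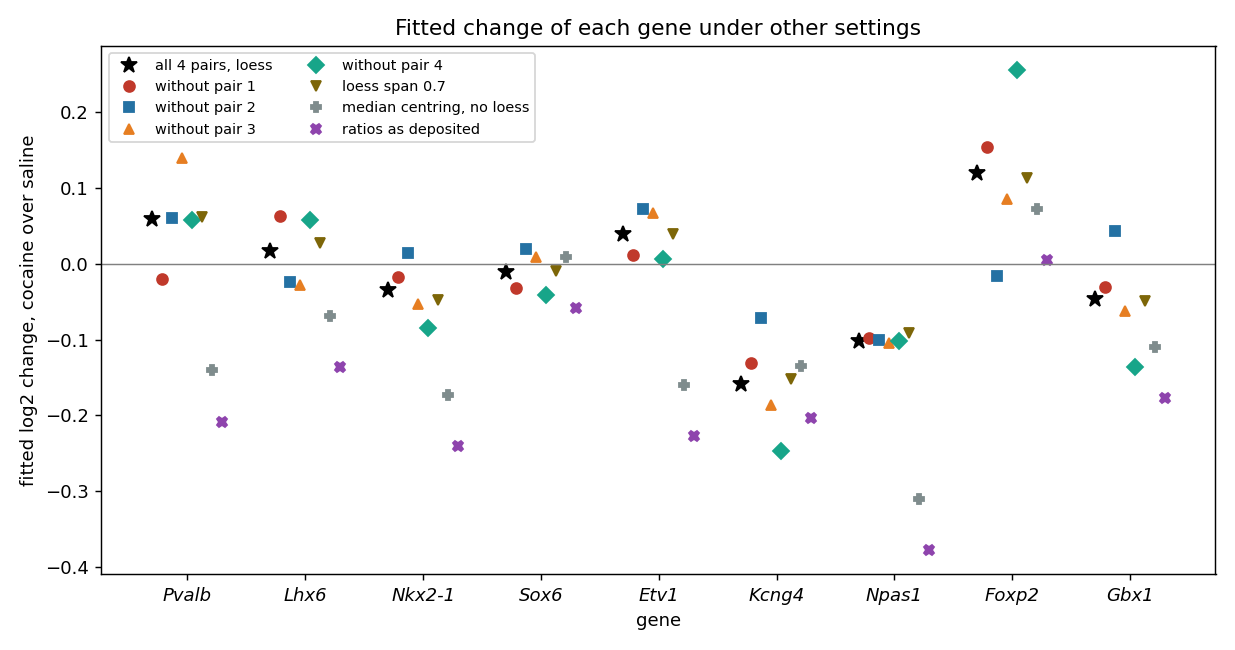
Fitted log2 change of cocaine over saline (vertical axis) of the 9 genes (horizontal axis) with all 4 pairs and loess (stars), without each pair in turn, and with other normalizations. Npas1 and Kcng4 are below 0 under every setting drawn. Npas1 stays between -0.10 and -0.098 when a pair is left out, which follows from its small gaps between pairs of the same dye orientation. Pvalb, Lhx6, Nkx2-1, Sox6, Etv1, Foxp2 and Gbx1 cross 0 under at least 1 of them.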

How the data were processed

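For each array the deposited table gives a log2 ratio per feature, made by the authors with Agilent Feature Extraction per the submitters' processing notes. The software version and any background correction or normalization were not given in the sources used here. On the arrays of pairs 1 and 3, 98.78% and 98.84% of 5000 values were log2 of a ratio of whole numbers (relative tolerance 1e-12). Pairs 2 and 4, given with 6 digits, had 2.1% and 1.78%, so this could not be seen there. Ratios of opposite dye orientations correlated at -0.843 to -0.942 across single features, and 213 genes had the same sign in all 4 pairs as deposited. The deposited log2 ratios were read as unnormalized and turned to 1 treatment direction, which for pairs 2 and 4 rests on these correlations and the column medians. Column medians were 0.42, -0.58, 0.41 and -0.43 for pairs 1 to 4.

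Mean signals were recovered from these fractions, in steps of 0.5 or 1 scanner unit above a floor of 50, with the multiple chosen by its frequency, by agreement of the 2 arrays and by the dye contrast. Features of 1 accession repeated at least 5 times within 0.3 log2 shared their median signal. This gave 44221 features a signal, leaving out 202 at 0 on all arrays. Tested on simulated data (5000 features), 79.9% lay within 0.25 log2 of the truth and 14.8% were off by a factor of 2. Loess on this signal (span 0.3, 4 iterations) was fitted per array on listed features.

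Names came from the platform annotation (33653 features with 1 symbol, 56 with several, 11511 not listed). Features of 1 symbol were averaged. limma 3.58.1 in R 4.3.3 was fitted to 18865 genes with a cocaine coefficient and a dye term (2 residual degrees of freedom, two-sided, Benjamini-Hochberg, threshold 0.05). For this comparison a simulation of 18865 genes with 200 changed and independent noise was run, in which 100% of changes of 0.5 and of 1 log2 were recovered, with 17 false calls, which checks the code and not the power in these data. Labels give each channel an animal code of its own, so pairs are taken as biological replicates. Pairs were numbered in the order of the samples. The members, gene lists and tests were chosen with earlier results of these data known. All members were named, and from each list of related genes the 2 with the smallest unadjusted p. Alternatives were other normalizations, no dye term, other treatment of features and leaving out pairs.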

Additional observations from a re-analysis of the deposited data

Results flagged for a closer look

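Among 42 series of 4 values checked (genes, single features and list medians), 4 held 1 outlying value (Dixon's test), and by chance about 1 series in 20 would. The series overlap and share the same 4 pairs, so 4 of 42 cannot be read as an excess. The fifth Nkx2-1 feature read -0.30 in pair 2, against 0.048, 0.048 and -0.010 in pairs 1, 3 and 4. The third Sox6 feature read -0.22 in pair 4, with pairs 1 to 3 at 0.0066 to 0.024. The median of the forebrain GABA lineage transcription factors was -0.099 in pair 4, with pairs 1 to 3 at 0.074 to 0.098. The median of the genes related to the 10 members was 0.11 in pair 2, with pairs 1, 3 and 4 at -0.022 to -0.0067.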

How the results depend on the processing

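No member was called under any of the 13 alternatives, 117 values in all, with a lowest adjusted p of 0.25 (Foxp2 without pair 4, limma). Of these values, 99 kept their direction and 18 turned. Some of them could not turn. Without a dye term every fitted change equals the main one, since the dye orientations are balanced. Pvalb, Etv1, Kcng4, Npas1 and Gbx1 have 1 feature each. For them the brightest feature, features not averaged and dim features left out also repeat the main value. Npas1 (-0.38 to -0.092) and Kcng4 (-0.25 to -0.071) turned under none. With median centring in place of loess, Pvalb was at -0.14, Lhx6 at -0.068, Etv1 at -0.16 and Sox6 at 0.0092. With the ratios as deposited, Pvalb was at -0.21, Lhx6 at -0.14 and Etv1 at -0.23. Both settings keep the dependence of the ratio on signal that loess removes. Foxp2 was at -0.037 with its brightest feature and with the dimmest features left out. With features not averaged, each member was represented by its feature with the smallest unadjusted p, and Sox6 was then at 0.086. That is 1 picked feature: of the 5 Sox6 features, 2 had a fitted change above 0 and 3 below, and the brightest was at -0.10. The cause of these turns was not tested. Leaving out 1 pair at a time gave -0.020 (without pair 1) to 0.14 for Pvalb, -0.028 (without pair 3; -0.024 without pair 2) to 0.063 for Lhx6, -0.084 to 0.014 (without pair 2) for Nkx2-1, -0.042 to 0.020 (without pair 2; 0.0097 without pair 3) for Sox6, -0.016 (without pair 2) to 0.26 for Foxp2 and -0.14 to 0.043 (without pair 2) for Gbx1.

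The median of the members was -0.14 with median centring and -0.20 as deposited, against -0.013 and -0.081 over all genes. The prototypic median was -0.14 and -0.21 in these settings, and the arkypallidal median was -0.19 as deposited. Members with the same direction in all pairs numbered 0 with median centring, 0 as deposited, 0 with a loess span of 0.7, and 1 to 4 without a pair. The 4 were seen without pair 4, where 22.7% of all genes had the same direction in the other 3 pairs, and 2 members, Foxp2 and Kcng4, reached an unadjusted p under 0.05, as did 12.9% of all genes. Leaving out a pair gave a members' median of -0.042 to 0.014, the prototypic median between -0.019 and 0.017 and the arkypallidal median between -0.058 and 0.077. Over all genes, 0 to 6 were called without a pair (3 without pair 2 and 6 without pair 4). A fit without a pair leaves 1 array in a dye orientation, whose spread is assumed to be that of the others. Each ratio already pairs a cocaine mouse with the saline mouse on its array, so no further block was fitted. Scanner files were not used here, so signal over background could not be judged per spot.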
